A study of Mus musculus with 4 samples.

Results

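The cells described here are mouse small intestinal CD4 T cells in which at least 1 transcript of the cytokine gene Il22 was read and no transcript of Il17a, Il17f or Foxp3 was read. They were chosen by 2 steps: barcodes with at least 500 genes, at least 1000 unique molecular identifiers (UMIs, the tags that mark single captured RNA molecules) and at most 10% mitochondrial UMIs were kept, and the UMIs of those 4 genes were then read in each cell. Of 22904 barcodes 22534 were kept, and 419 of these met the rule. They are called Il22 cells. They were set against 423 cells that held Il17a but no Il22 (Il17a cells), against 187 cells that held both (double-positive cells) and against 19749 cells that held neither, all with no Foxp3 UMI. Because Il22, Il17a, Il17f and Foxp3 chose the cells, their values are given as a description only.

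The study holds 4 droplet libraries of 1 group, unmanipulated wild-type C57Bl/6 mice, so every comparison is between classes of cells within the same libraries. CD4 T cells that were CD45+ CD3+ CD4+ and negative for the viability dye 7AAD were sorted from the lamina propria, the loose tissue beneath the intestinal epithelium, after Peyer's patches were removed. Tissue was treated with EDTA, digested with Collagenase D and DNaseI and passed over Percoll, and the 5′ ends of transcripts were read on the 10x Chromium platform. The labels do not say whether each library is 1 mouse. Classes were compared within libraries, so p-values measure how far class differences vary from library to library. That spread may be partly technical.

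Interleukin 22 acts on epithelial cells, which carry its receptor, and drives antimicrobial peptide production and barrier repair in the gut. In CD4 T cells it is made by Th17 cells, whose maintenance needs the interleukin 23 receptor, and by cells that make it without interleukin 17. The aryl hydrocarbon receptor (Ahr), a sensor of dietary and microbial ligands, is needed for much of intestinal Il22 production.

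In the mm10 annotation Il22 lies on chromosome 10 at chr10:118204942-118210047 on the plus strand, and its near copy Iltifb lies on the same chromosome at chr10:118289629-118295038 on the minus strand. Their reference transcripts of 1110 and 1111 bases are 97.3% identical, with 29 mismatches and 1 gap, and only 3 of the first 100 bases differ. Reads from the 5′ end may therefore be shared between these genes, and Iltifb counts are uncertain.

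Among the genes higher in Il22 cells than in cells with neither cytokine, described below, were Il23r and Ccr6, and the 250 bases before their start sites are shown because they hold the letters AGGTCA, which many nuclear receptors are known to recognise. Sequences are from RefSeq on GRCm38.p6, read 5′ to 3′ on the gene's strand, and lie outside the annotated gene. Capitals mark AGGTCA or its reverse complement TGACCT. The Il23r window is chr6:67491856-67492105 on the minus strand and holds 2 matches, and the Ccr6 window is chr17:8235793-8236042 on the plus strand and holds 1.
Il23r: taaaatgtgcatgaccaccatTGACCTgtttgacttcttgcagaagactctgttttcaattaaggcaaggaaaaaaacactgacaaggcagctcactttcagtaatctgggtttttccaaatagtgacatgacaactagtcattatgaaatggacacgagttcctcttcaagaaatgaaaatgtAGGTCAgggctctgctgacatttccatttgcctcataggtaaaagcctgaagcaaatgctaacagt
Ccr6: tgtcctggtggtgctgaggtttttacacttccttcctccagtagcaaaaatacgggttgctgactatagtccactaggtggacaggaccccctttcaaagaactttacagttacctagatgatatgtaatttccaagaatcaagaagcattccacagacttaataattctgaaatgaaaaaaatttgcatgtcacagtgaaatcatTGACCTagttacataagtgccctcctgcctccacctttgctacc
AGGTCA on either strand was found in 16.3% of all 32851 such windows of 300 bases, so a match is a description of these letters and not of a bound site. It was also found in the windows of S100a4, Iltifb, Il17a and Il17f, and it was not found in those of Il22, Il17re, Il1r1, Tmem176a, Tmem176b, Plcb4 or S100a6.

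Il22 cells were not equally common in the 4 libraries. There were 194, 123, 56 and 46 of them in libraries 1 to 4, which were 3.43%, 2.08%, 1.00% and 0.854% of the kept cells, with exact Clopper-Pearson 95% intervals of 2.97 to 3.93%, 1.73 to 2.48%, 0.759 to 1.30% and 0.626 to 1.14%. Libraries 1 and 2 stood above libraries 3 and 4 by more than counting error, the only error these intervals cover. The mean share was 1.84% ± 1.19 (SD, n = 4 libraries), and 1.32% ± 0.878 with each cell thinned to 2000 UMIs. Il17a cells were 1.88% ± 0.455 of kept cells (SD, n = 4). Double-positive cells numbered 110, 30, 23 and 24, so library 1 held most of them too.

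**Figure D1:**
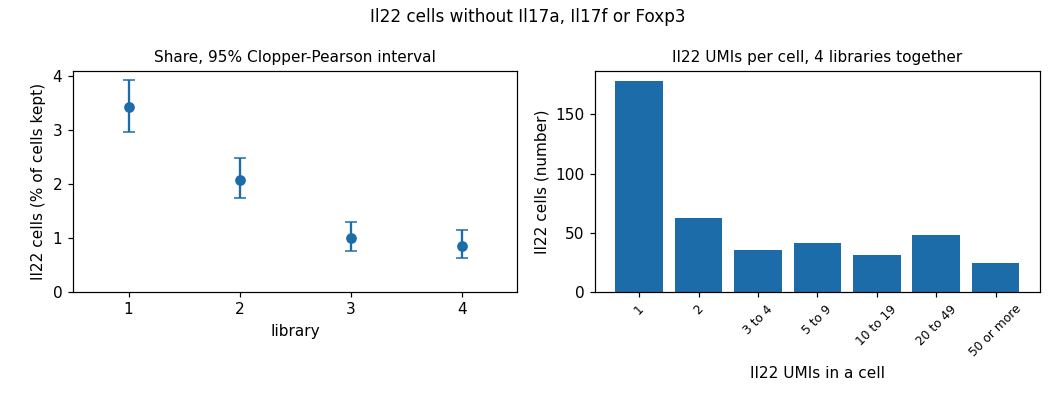
Left, the share of kept cells (percent) that were Il22 cells in each of the 4 libraries, with exact 95% Clopper-Pearson intervals, from 3.43% in library 1 to 0.854% in library 4. Right, the number of Il22 cells by the number of Il22 UMIs they held, from 178 cells with 1 UMI to 24 cells with at least 50.

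Il22 itself was read at very different depths from cell to cell. Of the 419 cells, 178 (42.5%) held a single Il22 UMI, just inside the rule, 62 held 2, 35 held 3 to 4, 41 held 5 to 9, 31 held 10 to 19, 48 held 20 to 49 and 24 held at least 50, up to 227. The 103 cells (24.6%) with at least 10 UMIs held 85.1% of all Il22 UMIs of the class. Just outside the rule were 20 double-positive cells with a single Il17a UMI, against 167 with at least 2, and 10 Il22-holding cells with a single Foxp3 UMI.

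Of 656 kept cells with an Il22 UMI, 419 (63.9%) met the rule, 187 also held Il17a, 22 held Il17f without Il17a and 28 held Foxp3. Among the 168 Foxp3-0 cells with at least 10 Il22 UMIs, 103 (61.3%) met the rule, 60 were double-positive and 5 held Il17f alone. This split depends on depth, since Il17a is called absent from 0 UMIs and the double-positive cells were deeper: their median was 6841 to 10552 UMIs per library, against 4377 to 5687 UMIs in Il22 cells. With every cell thinned to 2000 UMIs there were 291 Il22 cells and 97 double-positive cells.

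Free RNA can place a UMI in a cell that does not make it, so Il22 was also read in cells that should lack it. It was present in 18 of 1048 cells with at least 2 Foxp3 UMIs (1.72%, exact interval 1.02 to 2.70%, median depth 4945 to 6333 UMIs per library), and 6 of those 18 held at least 10 UMIs. It was present in 2.91% of all kept cells, whose median depth was 3686 to 4220 UMIs.

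The Il22 cells were read as αβ CD4 T cells. All 10 markers of that type were at or above 20 CPM (the UMIs of a gene summed over a class in a library, per 1000000 UMIs of that class). Cd4 was at 310.2, 342, 282 and 294 CPM, Cd3e at 1626, 1690, 1709 and 1514 CPM and Trac at 406, 384, 338 and 392 CPM in libraries 1 to 4. Lists of other cell types were read in part. Of 8 γδ T cell markers 5 were above 0, with Tcrg-C1, Tcrg-C2 and Tcrg-C4 at 20 CPM or more and Trdv4, Sox13 and Blk at 0, and their sum was 54.9 to 179 CPM in Il22 cells against 104 to 178 CPM in cells with neither. Of 6 markers of innate-like T cells 3 were above 0 and Zbtb16, which defines natural killer T cells, was at 0. Of 12 markers of group 3 innate lymphoid cells, many of them shared with type 17 T cells, 11 were above 0 and 5 were at 20 CPM or more, among them Il23r, Tmem176a, Tmem176b and Il7r, and Ncr1 was at 0. Of 5 B cell markers 2 were above 0, summing to 2.39 to 14.0 CPM, with Cd79a at 0. Of 7 epithelial markers 3 were above 0, summing to 8.40 to 11.9 CPM, with Krt8 at 0. All 8 myeloid markers were above 0, with Cst3 alone at 20 CPM or more. Their sum was 115 to 222 CPM, against 150 to 167 CPM in cells with neither. Of 5 stromal or endothelial markers 3 were above 0, with Pecam1 alone at 20 CPM or more. Their sum was 54.3 to 118 CPM, against 38.4 to 40.3 CPM. Of 5 plasma cell markers 4 were above 0, with Xbp1 alone at 20 CPM or more. Strict T cell identity, defined below, was failed by 228 of 419 Il22 cells, 206 of 423 Il17a cells and 128 of 187 double-positive cells. Of 19749 cells with neither, 6206 failed it. No Il22 cell lacked a T cell receptor or CD3 UMI, so all 228 failed by holding at least 2 UMIs of other cell types' markers. Il22, Iltifb and Ahr had been named as markers of these cells; Il22 is present by the rule, and Ahr, taken up below, did not pass the test against any of the other classes.

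Depth differed between the classes. The median cell held 4377 to 5687 UMIs across libraries among Il22 cells, 3504 to 5210 among Il17a cells, 6841 to 10552 among double-positive cells and 3597 to 4131 among cells with neither. Summed, the Il22 cells gave 1257361, 792166, 322417 and 357331 UMIs in libraries 1 to 4, out of 23918884 to 28783972 UMIs per library, so libraries 1 and 2 carry the more precise values. A cycling marker was read in 39.5% ± 5.24 of Il22 cells, 34.1% ± 8.58 of Il17a cells, 56.2% ± 4.38 of double-positive cells and 21.8% ± 2.54 of cells with neither (SD, n = 4). Between libraries 264 barcodes were shared, and 9 Il22 cells carried one, none shared between Il22 cells. The part of depth, cycling and library in the results below was not tested beyond the alternatives given.

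Set against cells with neither cytokine, Il22 cells had more transcripts of type 17 receptor and surface genes, and fewer of type 1 and killing genes. Across 7474 genes tested with edgeR's quasi-likelihood test on the summed counts with library as a block, 290 genes (3.88%) were higher and 226 (3.02%) were lower at a Benjamini-Hochberg adjusted p under 0.05, and the median log2 fold change of all genes tested was -0.0032. All adjusted p-values below come from this test. The count was 227 without library 1, 253 without library 2, 157 with every cell thinned to 2000 UMIs, 152 among cells of strict T cell identity (a T cell receptor or CD3 UMI and fewer than 2 UMIs of other cell types' markers) and 73 with only cells of at least 10 Il22 UMIs. DESeq2 called 370 higher and 161 lower, with a median log2 fold change of 0.17 over all genes.

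Type 17 factors moved in both directions. Rora, a nuclear receptor of Th17 cells, was at 809.6, 737, 608 and 551 CPM in Il22 cells against 463, 504, 409 and 383 CPM in cells with neither. The ranges did not overlap, and the means of 677 ± 118 and 440.0 ± 54.3 CPM (SD, n = 4) gave a log2 fold change of 0.65 ± 0.09 (SE, edgeR adjusted p = 4.17e-05). Of 14 factors tested, 4 were higher, among them Rora, Batf and Irf4, and 1, Maf, was lower, with a median log2 fold change of 0.10. Batf, an AP-1 partner needed for Th17 differentiation, was at 325, 282, 199 and 151 CPM in Il22 cells and 175, 158, 137 and 109 CPM in cells with neither, higher within each library though the ranges overlap (log2 fold change 0.76 ± 0.11 SE, edgeR adjusted p = 9.92e-05). Maf, which supports Il10 in T cells, was at 224 ± 19.0 against 334 ± 14.2 CPM (SD, n = 4), without overlap (log2 fold change -0.52 ± 0.11 SE, edgeR adjusted p = 0.0033). Irf4, a factor induced by T cell receptor signals, was at 55.1 ± 22.9 against 34.5 ± 6.59 CPM (SD, n = 4). Its edgeR adjusted p was 0.0222, and 0.199 without library 1 or without library 2.

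Ahr was not higher in Il22 cells. It was at 85.1, 69.4, 124 and 61.6 CPM in Il22 cells, against 83.9, 111, 112 and 103 CPM in cells with neither, and the ranges overlapped (log2 fold change -0.23 ± 0.14 SE, edgeR adjusted p = 0.38). Of the 6 AhR pathway genes tested none was higher and 1, the AhR repressor Ahrr, was lower, with a list median of -0.12. Ahrr had an edgeR adjusted p of 0.0353, and of 0.135, 0.0754 and 0.0793 without library 2, 3 or 4. None of 12 Notch and TGF-β genes passed the test, and their median log2 fold change was 0.022.

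Of the cytokine receptors, Il17re, Il1r1, Il23r and Il9r were higher in Il22 cells than in cells with neither. Il23r was at 42.2, 41.7, 55.8 and 28.0 CPM in Il22 cells and 7.57, 6.51, 4.14 and 4.29 CPM in cells with neither. Every Il22 value was above every other value, and the log2 fold change was 2.82 ± 0.26 (SE, edgeR adjusted p = 1.31e-07). A UMI of Il23r was read in 19.0% ± 1.85 of Il22 cells, 2.01% ± 0.634 of cells with neither and 2.45% ± 1.17 of cells with at least 2 Foxp3 UMIs (7.40% ± 3.42, 1.03% ± 0.314 and 0.279% ± 0.364 after thinning).

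Il17re, a receptor subunit for interleukin 17C, was at 13.2 ± 5.54 CPM in Il22 cells against 0.821 ± 0.288 CPM in cells with neither (SD, n = 4), a log2 fold change of 3.94 ± 0.49 (SE, edgeR adjusted p = 9.8e-06). Il1r1, the interleukin 1 receptor, was at 23.1, 11.4, 3.10 and 5.60 CPM against 2.51, 1.54, 0.731 and 0.481 CPM, and its level in library 3 is near that of a single UMI in the sum. Its log2 fold change was 3.09 ± 0.47 (SE, edgeR adjusted p = 0.00012). Il9r, the interleukin 9 receptor, also passed, at 32.7 ± 5.04 against 13.2 ± 1.93 CPM (SD, n = 4). These were the 4 of 22 cytokine receptors that were higher, and 6 were lower: Il12rb1, Il12rb2, Il7r, Il27ra, Il10ra and Ifngr1. The list median was -0.19.

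Il12rb2, the signalling chain of the interleukin 12 receptor that marks Th1 cells, was at 97.0, 55.5, 96.1 and 112 CPM in Il22 cells against 252, 224, 252 and 218 CPM in cells with neither. The ranges did not overlap, and the log2 fold change was -1.41 ± 0.14 (SE, edgeR adjusted p = 4.06e-07). Il7r, the survival receptor of memory T cells, was at 271 ± 48.0 against 528 ± 54.8 CPM, and Il10ra at 9.82 ± 6.53 against 35.4 ± 5.79 CPM (SD, n = 4).

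**Figure D2:**
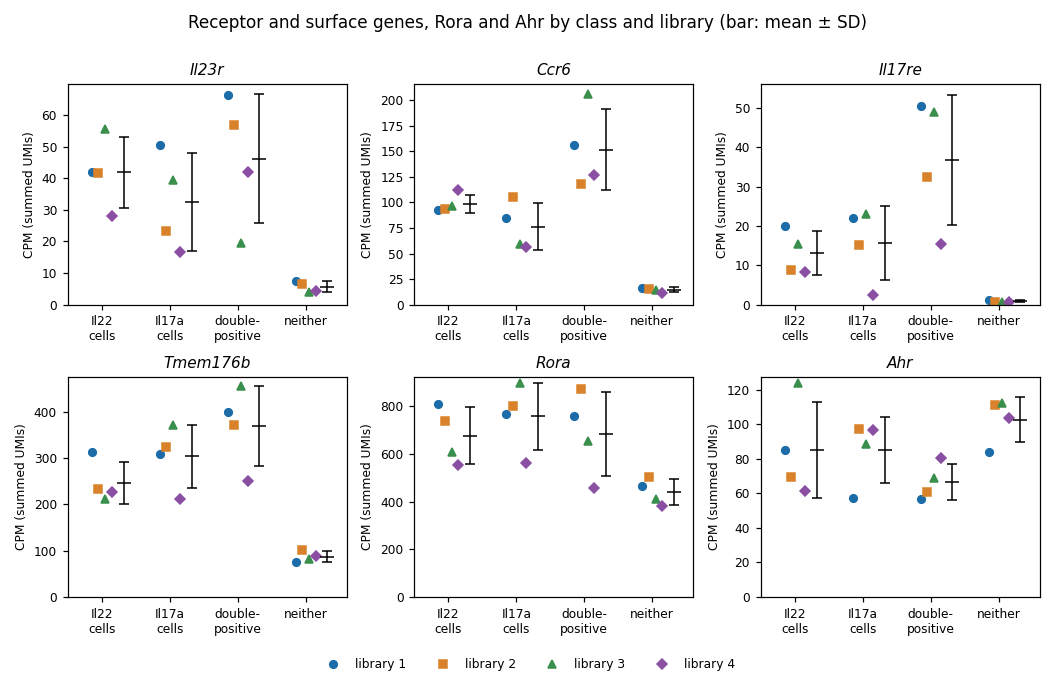
Level (CPM of the summed UMIs, vertical axis) of Il23r, Ccr6, Il17re, Tmem176b, Rora and Ahr in Il22, Il17a and double-positive cells and in cells with neither (horizontal axis). Points are the 4 libraries and bars are the mean with its SD; the first 5 genes stand above the cells with neither in all 4 libraries of Il22 cells, and Ahr does not.

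Homing receptors differed as well. Ccr6, the receptor for CCL20 made by gut epithelium and the classical Th17 homing receptor, was at 92.3, 93.4, 96.1 and 112 CPM in Il22 cells and 16.5, 15.5, 14.5 and 11.4 CPM in cells with neither, without overlap (log2 fold change 2.74 ± 0.16 SE, edgeR adjusted p = 5.41e-11). It was read in 32.0% ± 5.79 of Il22 cells, 4.52% ± 0.805 of cells with neither and 8.39% ± 2.63 of cells with at least 2 Foxp3 UMIs (15.5% ± 3.09, 2.23% ± 0.462 and 3.12% ± 1.80 after thinning). Of 16 chemokine and migratory receptors, 4 were higher (Ccr6, Ccr4, Gpr183 and Ltb4r1) and 2 were lower, Ccr7 among them, with a list median of 0.059. Ccr4, a receptor of skin and tissue-homing T cells, was at 109 ± 16.8 against 48.7 ± 5.03 CPM (SD, n = 4). Ccr7 rested on the first libraries: its edgeR adjusted p was 0.473 without library 1 and 0.145 without library 2.

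A group of surface and calcium-binding genes of lamina propria type 17 cells was also higher, 7 of 14 tested against 2 lower, with a list median of 0.93. Tmem176b and Tmem176a, membrane proteins that type 17 lymphocytes are known to carry, were at 246 ± 45.4 against 87.0 ± 11.1 CPM and 179 ± 36.5 against 46.7 ± 7.21 CPM (SD, n = 4). S100a4, a small calcium-binding protein, was at 103, 59.3, 68.2 and 58.8 CPM in Il22 cells against 13.5, 10.8, 9.11 and 11.1 CPM, a log2 fold change of 2.78 ± 0.20 (SE, edgeR adjusted p = 2.56e-09). S100a6, Il17re, Ltb4r1 and the glycerol channel Aqp3 were the other members that were higher. The 2 lower ones were the γ chain constant segments Tcrg-C2 and Tcrg-C4. Outside the lists, Serpinb1a, a protease inhibitor, was at 92.3 ± 44.2 against 20.5 ± 5.60 CPM (SD, n = 4), and Ablim3 and Plcb4 had log2 fold changes of 2.65 ± 0.33 and 1.93 ± 0.17 (SE).

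Type 1 genes were lower in Il22 cells: 7 of 13 Th1 genes fell (among them Tbx21, Nkg7, Fasl, Ifng, Il12rb2, Ccl5), none rose and the list median was -0.34. Tbx21, which encodes the Th1 factor T-bet, was at 36.6, 45.4, 40.3 and 22.4 CPM in Il22 cells against 79.1, 88.5, 90.1 and 91.3 CPM in cells with neither, without overlap (log2 fold change -1.15 ± 0.15 SE, edgeR adjusted p = 2.49e-05). Ccl5, a chemokine of effector and memory T cells, was at 676, 817, 1703 and 784 CPM against 3441, 2953, 3898 and 4774 CPM, and library 3 stood above the others among Il22 cells. Its log2 fold change was -1.98 ± 0.24 (SE, edgeR adjusted p = 7.41e-06). Ifng was at 145, 84.6, 301 and 134 CPM against 313, 357, 342 and 288 CPM, and library 3 again overlapped the other class (log2 fold change -1.07 ± 0.21 SE, edgeR adjusted p = 0.00174). Without library 2 the Ifng value was -0.76 with an edgeR adjusted p of 0.0603. The Ifng call was also lost with DESeq2, without cells holding a cycling marker, and with only cells of at least 10 Il22 UMIs. With only those cells Il12rb2 and Nkg7 missed the threshold too (edgeR adjusted p = 0.388 and 0.0585). The calls of Ccl5, Gzma and Gzmk held under all 17 alternatives.

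Killing genes were lower as well, with 6 of 12 lower, none higher and a list median of -0.82. Gzma, a granule protease, was at 427, 687, 757 and 411 CPM in Il22 cells against 1467, 1719, 1629.9 and 1816 CPM in cells with neither, and Gzmk was at 30.6 ± 9.66 against 128 ± 23.4 CPM (SD, n = 4). The log2 fold change of Gzmk was -2.08 ± 0.24 (SE, edgeR adjusted p = 4.02e-06). Nkg7, a granule protein of cytotoxic cells, was at 550.5 ± 67.9 against 1073 ± 110.5 CPM and Gzmb at 341 ± 78.6 against 919 ± 57.0 CPM (SD, n = 4). The summed CD8 and cytotoxic marker list was at 739 to 1238 CPM in Il22 cells and 2518 to 3029 CPM in cells with neither. Only its members Gzma, Gzmb and Gzmk were at 20 CPM or more in Il22 cells. This sum therefore largely repeats the values above and is no separate result.

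Other cytokines and chemokines were mostly lower: of 15 tested, 1 rose (Mif) and 6 fell (Ifng, Il10, Il21, Xcl1, Ccl4, Ccl5), with a list median of -0.75. Il10, an anti-inflammatory cytokine, was at 1.59, 3.79, 24.8 and 0 CPM in Il22 cells against 34.7, 51.6, 44.4 and 33.0 CPM in cells with neither (log2 fold change -3.00 ± 0.45 SE, edgeR adjusted p = 0.000111). The value 0 is that of library 4, where 3 UMIs would be 8.40 CPM. Ccl4 was at 2.39, 35.3, 102 and 0 CPM against 129, 164, 181 and 284 CPM, with the highest Il22 value again in library 3. Of 8 TNF family ligands, 2 were higher (Tnfsf8, Tnfsf11) and 2 lower, with a list median of -0.076. Tnfsf8, the CD30 ligand, was at 246 ± 43.7 against 118 ± 22.9 CPM (SD, n = 4), and Tnfsf11 lost its call without library 1, 2 or 4 (edgeR adjusted p = 0.154, 0.25 and 0.191).

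**Figure D3:**
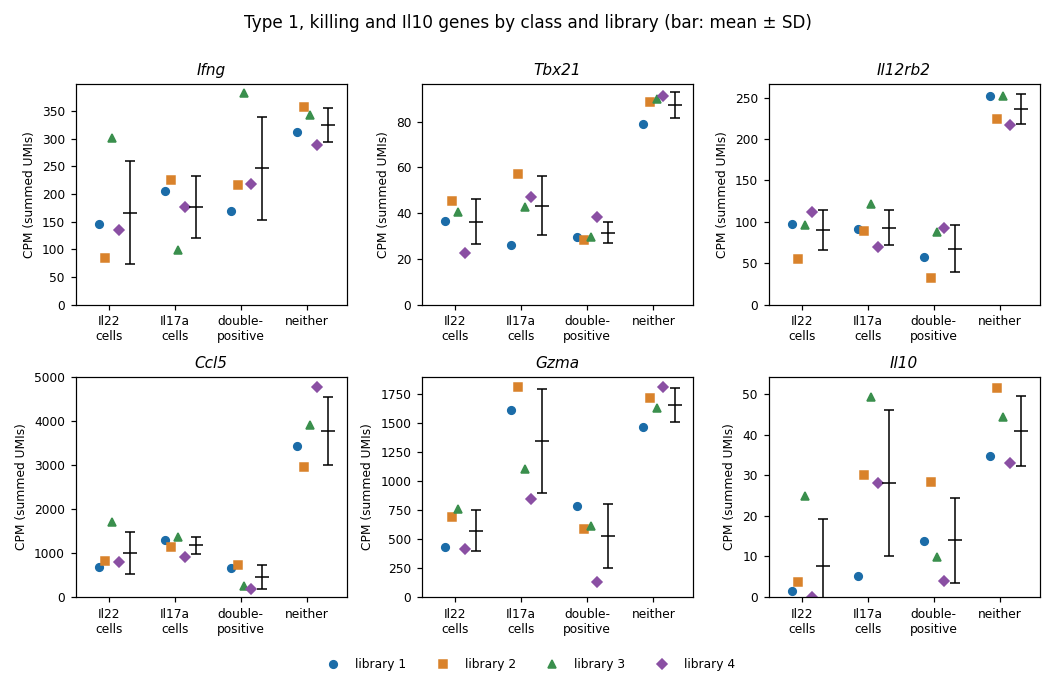
Level (CPM of the summed UMIs, vertical axis) of Ifng, Tbx21, Il12rb2, Ccl5, Gzma and Il10 in Il22, Il17a and double-positive cells and in cells with neither (horizontal axis). Points are the 4 libraries and bars are the mean with its SD; Tbx21, Il12rb2, Ccl5, Gzma and Il10 lie below the cells with neither in all 4 libraries of Il22 cells, and the Ifng ranges overlap.

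Il22 cells carried more transcripts of glycolysis. Of 15 glycolysis genes, 7 were higher (Hk2, Tpi1, Gapdh, Pgk1, Eno1, Pkm, Ldha), none was lower and the list median was 0.35. Hk2, the hexokinase that starts the pathway, was at 103, 99.7, 109 and 50.4 CPM in Il22 cells against 39.1, 46.5, 36.2 and 35.4 CPM in cells with neither, without overlap (log2 fold change 1.21 ± 0.17 SE, edgeR adjusted p = 3.67e-05). Ldha, lactate dehydrogenase, was at 792 ± 49.3 against 597 ± 22.7 CPM (SD, n = 4). The share of cells with a cycling marker, 39.5% against 21.8%, moved with these genes and its part was not tested for the list. Of 18 sterol and fatty acid genes 1 was lower and none higher, with a list median of -0.21.

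More integrin and residence genes fell than rose. Of 14 integrin and residence genes, Itgae, Itga1, Itgb1, Rgs1 and Hic1 fell and Itgb7 rose, with a list median of -0.33; the Itgb7 call had an edgeR adjusted p of 0.0636 without library 2. Itga1, a collagen-binding integrin chain, was at 10.9 ± 3.16 against 36.3 ± 3.37 CPM (SD, n = 4). Of 10 memory and stemness genes, 4 fell (Ccr7, Foxp1, Il7r and Cd27) and none rose, with a list median of 0.092. Of 11 co-stimulatory receptors, Icos and Tnfrsf25 rose and Tnfrsf18 and Cd27 fell (median -0.10), and Tnfrsf25, the receptor for TL1A, was at 74.2 ± 5.07 against 30.5 ± 2.52 CPM (SD, n = 4). Of 10 co-inhibitory receptors Btla rose and Lag3 and Tigit fell (median -0.037). Without library 1 the edgeR adjusted p was 0.147 for Icos and 0.165 for Lag3. That of Btla was 0.0541 and 0.106 without library 1 or 2, and that of Foxp1 was 0.271 and 0.0728. That of Tnfrsf18 was 0.0818, 0.125 and 0.0648 without library 1, 3 or 4.

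Few genes of activation or handling passed. Of 14 genes induced by T cell receptor signals 1 was higher and none lower (median -0.080), of 14 genes induced by tissue dissociation 1 was higher, the chaperone Hsp90aa1 (median -0.018), and of 12 SOCS, PIM and survival genes Socs2 and Pim2 were lower (median -0.032). The Hsp90aa1 call had an edgeR adjusted p of 0.058 without library 4, and that of Pim2 was 0.0718, 0.235 and 0.133 without library 1, 2 or 3.

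Between Il22 cells and Il17a cells, no type 17 factor or cytokine receptor passed the test, and Capg, Ctla4 and a small set of other genes did. Of the same 7474 genes, 5 (0.0669%) were higher and 19 (0.254%) were lower in Il22 cells, with a median log2 fold change of 0.011 over all genes, and 681 had an unadjusted p under 0.05. Of 14 type 17 factors none passed in either direction (median -0.21), nor did any of 22 cytokine receptors (median -0.011), 6 AhR pathway genes, 15 effector cytokines (median -0.31), 13 Th1 genes or 15 glycolysis genes. The count of 24 was 12 without library 1, 7 without library 2, 15 without library 4 and 5 without the library block, and DESeq2 called 22 higher and 38 lower.

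Il23r was at 41.9 ± 11.4 CPM in Il22 cells and 32.5 ± 15.4 CPM in Il17a cells, and Ccr6 at 98.4 ± 9.15 against 76.3 ± 23.3 CPM (SD, n = 4), with log2 fold changes of 0.34 ± 0.29 and 0.29 ± 0.18 (SE; edgeR adjusted p = 0.812 and 0.675). Ahr was at 85.0 ± 27.8 against 85.0 ± 19.0 CPM (SD, n = 4), a log2 fold change of 0.02 ± 0.17 (SE). These values do not show that the classes are alike, since a miss of the threshold leaves differences of the size of these errors undetected.

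Capg, an actin filament capping protein, was at 88.3, 79.5, 55.8 and 70.0 CPM in Il22 cells against 243, 252, 224 and 236 CPM in Il17a cells. No value of one class reached the other, the log2 fold change was -1.64 ± 0.13 (SE, edgeR adjusted p = 8.91e-08), and the call held under all 16 alternatives. Capg averaged 73.4 ± 13.9 CPM in Il22 cells, 211 ± 41.7 CPM in double-positive cells and 86.1 ± 10.1 CPM in cells with neither (SD, n = 4). Ctla4, the co-inhibitory receptor that competes with CD28, was at 875, 985, 872 and 826 CPM in Il22 cells against 1738, 1667, 2158 and 1661 CPM in Il17a cells, again without overlap (log2 fold change -1.01 ± 0.09 SE, edgeR adjusted p = 1.65e-07), and its call also held under all 16.

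Ctla4 was 1 of 3 co-inhibitory receptors of 10 that were lower, with Tigit and Lag3, and none was higher (list median -0.29). Between Il22 cells and cells with neither, Ctla4 did not pass the test in either direction. Tigit, which binds CD155, was at 120.1, 117, 102 and 118 CPM in Il22 cells against 179, 179, 145 and 191 CPM in Il17a cells. Lag3, which binds MHC class II, was at 10.3, 29.0, 15.5 and 11.2 CPM against 37.7, 41.9, 46.1 and 57.4 CPM. Neither overlapped, but their calls were less firm than that of Ctla4. Tigit had a log2 fold change of -0.62 ± 0.12 (SE, edgeR adjusted p = 0.0199; 0.122, 0.109 and 0.104 without library 1, 2 or 4). Lag3 had -1.49 ± 0.33 (SE, edgeR adjusted p = 0.0461; 0.189, 0.108 and 0.279 without library 1, 3 or 4).

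Rgs1, Ehd1, Rbpj and Gzma were also lower in Il22 cells than in Il17a cells. Rgs1, which dampens chemokine receptor signals, was at 1942 ± 259.9 against 2827 ± 427 CPM and the endocytic recycling gene Ehd1 at 89.2 ± 23.2 against 178 ± 7.51 CPM (SD, n = 4). Their log2 fold changes were -0.54 ± 0.09 and -0.92 ± 0.14 (SE; edgeR adjusted p = 0.00356 and 0.00251), and Rgs1 missed the threshold without library 2 (0.0766). Rbpj, the DNA-binding partner of Notch, was at 61.2, 85.8, 55.8 and 95.1 CPM against 112, 134, 155 and 173 CPM and was the only Notch and TGF-β gene of 12 to pass (log2 fold change -0.92 ± 0.18 SE, edgeR adjusted p = 0.0154; 0.0926, 0.0705 and 0.0516 without library 1, 2 or 4). Gzma was at 427, 687, 757 and 411 CPM against 1617, 1814, 1109 and 844 CPM, without overlap (log2 fold change -1.27 ± 0.23 SE, edgeR adjusted p = 0.0129; 0.103 and 0.147 without library 1 or 2). The repressor Nfil3, the transcription factor Zeb2, the cell cycle inhibitor Cdkn1a and Tmem64 passed as well, with log2 fold changes of -1.13, -2.54, -0.94 and -1.11. The Nfil3 call was lost when any 1 library was left out (edgeR adjusted p = 0.0847 to 0.194). That of Zeb2 was lost in all 3 such fits that could be made, without library 2, 3 or 4 (0.0558, 0.0911 and 0.104). That of Cdkn1a was lost without library 1 or 2 (0.123 and 0.061) and that of Tmem64 without library 2 or 4 (0.0705 and 0.0888).

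Named genes higher in Il22 cells were Gpr18, Socs3, Trim12a, Il16 and Eif4b. Gpr18, a lipid-sensing receptor of intestinal lymphocytes, was at 109, 97.2, 86.8 and 28.0 CPM in Il22 cells against 50.6, 16.8, 6.58 and 24.2 CPM in Il17a cells, with library 4 of the Il22 cells inside the other range (log2 fold change 1.58 ± 0.29 SE, edgeR adjusted p = 0.0136; 0.203 and 0.0558 without library 2 or 3). Socs3, the feedback inhibitor of STAT3 signals, was at 149, 140.1, 183 and 72.8 CPM against 80.5, 112, 49.3 and 40.8 CPM, higher in each library with overlapping ranges (log2 fold change 0.87 ± 0.18 SE, edgeR adjusted p = 0.03; 0.222, 0.0606 and 0.0964 without library 1, 3 or 4). Gpr18 in cells with neither was at 92.0 ± 10.8 CPM and Socs3 at 119 ± 31.0 CPM (SD, n = 4), both nearer to Il22 than to Il17a cells. Il16 and Eif4b missed the threshold when any 1 of the 4 libraries was left out. The Trim12a call was lost in 8 of 16 alternatives, among them those without library 1, 2 or 4.

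**Figure D4:**
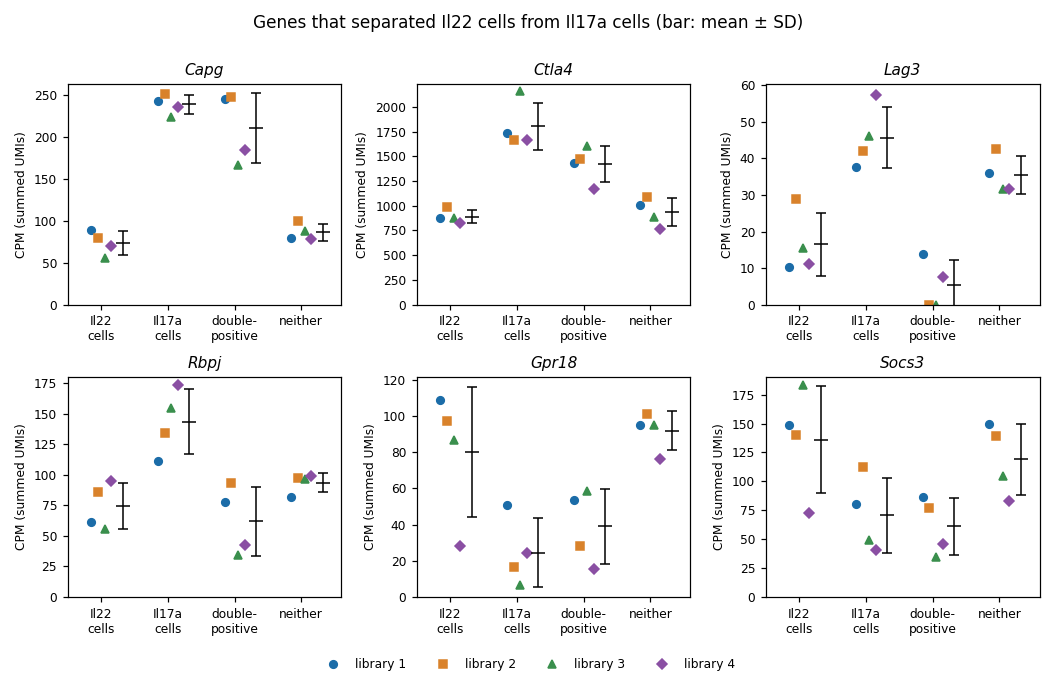
Level (CPM of the summed UMIs, vertical axis) of Capg, Ctla4, Lag3, Rbpj, Gpr18 and Socs3 in Il22, Il17a and double-positive cells and in cells with neither (horizontal axis). Points are the 4 libraries and bars are the mean with its SD; Capg, Ctla4, Lag3 and Rbpj lie lower in all 4 libraries of Il22 cells than in any library of Il17a cells, and the Gpr18 and Socs3 ranges overlap.

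Some cytokines differed in level but did not pass. Areg, an epidermal growth factor family member of tissue repair, was at 256, 146, 43.4 and 148 CPM in Il22 cells against 262, 268, 444 and 266 CPM in Il17a cells (edgeR adjusted p = 0.178). Il13 was at 0 in all 4 sums of Il22 cells, where 3 UMIs would be 2.39, 3.79, 9.30 and 8.40 CPM, against 0, 13.4, 102 and 120 CPM in Il17a cells (edgeR adjusted p = 0.128). Iltifb, the near copy of Il22, was at 49.5 ± 21.2 against 14.4 ± 12.6 CPM in Il17a cells and 2.07 ± 0.91 CPM in cells with neither (SD, n = 4), a description only, since its reads may be those of Il22.

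Set against double-positive cells, Il22 cells had lower Capg, Ctla4 and mitotic transcripts and higher Nkg7. Of 7474 genes, 81 (1.08%) were higher and 150 (2.01%) lower in Il22 cells. The median over all genes was 0.021. The double-positive cells were deeper and held more cycling cells. The 231 calls came to 11 of 3547 genes tested with every cell thinned to 2000 UMIs. They came to 13 of 5050 without cells holding a cycling marker and 3 of 3881 among cells of strict T cell identity. Without library 1, 2, 3 or 4 they came to 144, 87, 90 and 149.

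Of 14 type 17 factors 1 was lower and none higher in Il22 cells (list median 0.022). Ahr was at 85.0 ± 27.8 CPM in Il22 cells against 66.7 ± 10.5 CPM in double-positive cells (SD, n = 4; edgeR adjusted p = 0.446). Of the 14 lamina propria type 17 surface genes 4 were lower, S100a4, S100a6, Capg and Aqp3, and none was higher (median -0.74). Capg was at 73.4 ± 13.9 against 211 ± 41.7 CPM and Ctla4 at 889 ± 67.5 against 1422 ± 180.4 CPM (SD, n = 4). Ctla4 held its call under all 16 alternatives (edgeR adjusted p = 0.000141), and Capg (7.93e-07) missed it with thinned cells (0.24) and among cells of strict T cell identity (0.0941). Ccr6 was lower, at 98.4 ± 9.15 against 152 ± 39.7 CPM (SD, n = 4; edgeR adjusted p = 0.0381), and missed the threshold without library 1, 2 or 3 (0.233, 0.0773 and 0.168).

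Of 15 glycolysis genes 4 were lower in Il22 than in double-positive cells (Ldha, Gapdh, Eno1, Pgk1; median -0.19), and Ldha was at 792 ± 49.3 against 1039.8 ± 113 CPM (SD, n = 4). All 4 lost their call without library 2, and all 4 without library 3. Ccnb2, a mitotic cyclin, was at 34.2, 41.7, 31.0 and 47.6 CPM in Il22 cells against 82.3, 171, 103 and 211 CPM (log2 fold change -1.75 ± 0.30 SE, edgeR adjusted p = 0.00128), and Ube2c, Kif11, Aurkb, Ckap2l and Cdca3, all mitotic genes, were lower too. With thinned cells Ccnb2 had an edgeR adjusted p of 0.605. In the other direction 3 of 13 Th1 genes (Nkg7 and Fasl among them; median 0.35) and 2 of 12 killing genes (Nkg7, Ctsw; median 0.59) were higher in Il22 cells. Nkg7 was at 457, 562, 620.3 and 563 CPM against 349, 333, 225 and 314 CPM, without overlap (log2 fold change 0.73 ± 0.12 SE, edgeR adjusted p = 0.000901; 0.0508 with thinned cells). Socs3 was higher here as well, at 136 ± 46.1 against 61.0 ± 24.8 CPM (SD, n = 4; edgeR adjusted p = 0.00721; 0.67 without cells holding a cycling marker).

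Il22 cells were not uniform. Of the 419, 119 (28.4%) held an Ifng UMI, as did 27.7% of Il17a cells, 34.8% of double-positive cells and 35.0% of cells with neither. The Ifng-holding Il22 cells (56, 31, 17 and 15 per library) were compared with the 300 Ifng-0 Il22 cells (138, 92, 39 and 31). Of 3523 genes tested, 8 (0.227%) were higher and 4 (0.114%) lower in the Ifng-holding cells, and 343 had an unadjusted p under 0.05. Ifng chose these 2 sets and is not tested; Il22 was at 2046, 1916, 832 and 1364 CPM in Ifng-holding cells and 1477, 2224, 1897 and 1544 CPM in Ifng-0 cells.

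Ifng-holding Il22 cells had more transcripts of the type 1 genes Il12rb2, Nkg7 and Ccl5. Il12rb2 was at 201, 98.5, 212 and 229 CPM in them against 44.4, 36.5, 20.5 and 44.2 CPM in Ifng-0 cells, without overlap (log2 fold change 2.15 ± 0.24 SE, edgeR adjusted p = 0.00181). The call held under the 12 alternatives in which it could be fitted. Nkg7, at 851 ± 135 against 380.1 ± 77.5 CPM, Gzmb, at 589 ± 214 against 200.5 ± 46.0 CPM, and Ccl5, at 1937 ± 1238 against 432 ± 161 CPM (SD, n = 4), were higher as well, and Rgs1 and Cd7 too. The Cd7 call was lost without library 1 or 2 (edgeR adjusted p = 0.155 and 0.103), and that of Gzmb with scored doublets removed (0.076). Of 11 Th1 genes 3 were higher (median 0.32) and of 8 killing genes 2 (median 0.54), against a median of 0.00046 over all genes.

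No type 17 factor of 14 passed the test between these 2 sets (median 0.12). Il23r was at 33.3 ± 22.5 CPM in Ifng-holding cells against 45.5 ± 15.9 CPM in Ifng-0 cells (SD, n = 4; edgeR adjusted p = 0.484). Ccr6 was lower, at 33.0, 53.3, 70.6 and 38.1 CPM in Ifng-holding cells against 122, 111, 113 and 155 CPM in Ifng-0 cells (log2 fold change -1.46 ± 0.25 SE, edgeR adjusted p = 0.0199; -1.22 and 0.111 without library 1). With scored doublets removed it was -1.18 (edgeR adjusted p = 0.12), and DESeq2 gave -1.44 (DESeq2 adjusted p = 0.13). Of 11 chemokine and migratory receptors tested 1 rose, and 1, Ccr6, fell.

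Doublet scores and depth moved with this split. A doublet was scored in 21.4%, 16.1%, 5.88% and 6.67% of Ifng-holding cells and in 2.90%, 3.26%, 7.69% and 3.23% of Ifng-0 cells, and median depths were 5740 to 6245 and 3929 to 5519 UMIs. With scored doublets removed 7 genes passed, with cells thinned to 2000 UMIs or of strict T cell identity none did, and the thinned log2 fold change of Ccl5 was -0.69. Without library 1 the count was 19 and without library 4 it was 21.

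**Figure D5:**
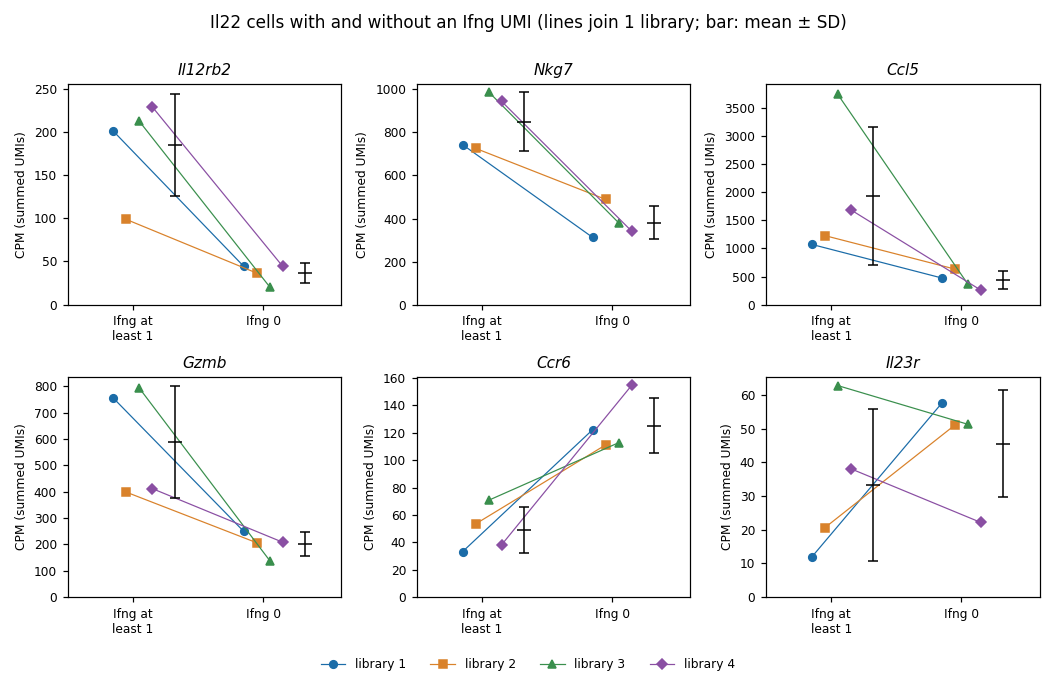
Level (CPM of the summed UMIs, vertical axis) of Il12rb2, Nkg7, Ccl5, Gzmb, Ccr6 and Il23r in Il22 cells with at least 1 Ifng UMI (left) and with none (right). Points are the 4 libraries and lines join the 2 sets of a library; the first 4 genes are higher and Ccr6 lower in the Ifng-holding set of all 4 libraries, and Il23r goes both ways.

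No gene passed the test between cells with many Il22 UMIs and cells with 1. This comparison was added once values had been seen. Of 3272 genes tested with edgeR, none (0.0%) passed between the 103 cells with at least 10 Il22 UMIs and the 178 with 1; 172 had an unadjusted p under 0.05 and DESeq2 also called 0. The smallest edgeR adjusted p, 0.0641, was that of Ifng, at 260.1, 138, 762 and 289.8 CPM in cells with at least 10 Il22 UMIs against 111, 80.5, 285 and 66.3 CPM in cells with 1, higher in 4 of 4 libraries (log2 fold change 1.33 ± 0.21 SE). Without library 3 or library 4 it passed (0.0317 and 0.0407), and 6 and 4 genes did in all. Batf was at 483 ± 104 against 181 ± 93.8 CPM (SD, n = 4; edgeR adjusted p = 0.13), and Ahr had a log2 fold change of 0.68 ± 0.28 (SE, edgeR adjusted p = 0.841).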

How the data were processed

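Gene expression was measured in 4 libraries of 1 group. Per the submitters' processing notes, the authors used Cell Ranger 3.0.2 on mm10 and deposited filtered matrices of raw UMI counts for 31053 gene IDs; other filters are not given in the sources used here. All columns were used (0 left out). The lowest deposited barcode held 502 UMIs.

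UMI counts were summed per class and library and tested with edgeR 4.0.16 (limma 3.58.1, R 4.3.3): TMM scaling, glmQLFit and glmQLFTest on classes and library, with Benjamini-Hochberg adjustment over all genes tested. Classes are cells of the same libraries, so library is a block by construction. The 4 main classes shared 1 fit; the fits by Ifng and by Il22 UMIs were separate. Genes with low counts were dropped with filterByExpr, so a gene may have passed through the class where it is high. DESeq2 1.42.0 was an alternative. Cells were handled in Python 3.11.15 with scanpy 1.11.5, numpy 2.4.6, scipy 1.17.1 and pandas 2.3.3; RefSeq and annotation sequences with biopython 1.88; figures with matplotlib 3.10.9. Doublets were scored with Scrublet at 0.8% per 1000 barcodes (1050 scored in all, 30 of them Il22 cells), kept in the main values and removed as an alternative. The alternative of strict T cell identity, which needs a UMI of a CD3 or T cell receptor gene and fewer than 2 UMIs of non-T markers, kept 191 of the 419 cells. Scripts were tested on simulated data.

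The members and gene lists were chosen with earlier results of these data known. Genes past the threshold were named if among the 10 with the largest rise or the 10 with the largest fall, moving alike in all 4 libraries, with at least 20 CPM in 1 class, excluding predicted genes, receptor segments, ribosomal and mitochondrial genes, plus up to 4 genes per list and the cytokine, AhR and type 17 genes. Cd3e, Cd4 and Trac, other markers at 0 and list members given by name only fall outside that rule and were chosen with their values seen. The 19 lists hold 286 entries. Shares of cells were also computed after thinning to 2000 UMIs, with shallower cells left out. Shares of cells with a UMI of a gene kept the classes of the unthinned counts. Some genes are not reported here.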

Additional observations from a re-analysis of the deposited data

Results flagged for a closer look

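Among Il22 cells, single libraries stood apart for 7 genes, and 1 share of cells did so too; 81 sets of 4 values were looked at, and chance alone gives about 1 in 20. Library 3 was highest for Ccl5 at 1703 CPM and for Il10 at 24.8 CPM. Library 4 was highest for Ltb4r1 at 28.0 CPM and Il10ra at 19.6 CPM, and lowest for Hk2 at 50.4 CPM. Library 2 was highest for Klrg1 at 7.57 CPM, and library 3 was lowest for Tigit at 102 CPM. Of kept cells in library 1, 1.94% were double-positive, above the share in the other libraries.

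Outside the comparisons, 28 cells held both Il22 and Foxp3, and 22 Foxp3-0 cells held Il22 and Il17f without Il17a.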

How the results depend on the processing

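Named genes past the threshold kept their direction under the alternatives run except in 3 cases: Trim12a against Il17a cells was -0.18 among cells of strict T cell identity, Gapdh against double-positive cells was 0.013 without cells holding a cycling marker, and Ccl5 between Ifng-holding and Ifng-0 Il22 cells was -0.69 with thinned cells; the cause was not tested. Counts of genes called moved more. Against Il17a cells the 24 became 60 with DESeq2, 157 with no filter on low counts, 51 with only the 2 classes fitted, 10 with at least 2 Il22 UMIs, 15 with at least 10 and 7 to 22 leaving out a library. Against cells with neither the 516 became 775 with only the 2 classes, 157 thinned, 152 with strict T cell identity, 73 with at least 10 Il22 UMIs, 207 without cycling cells and 227 to 441 leaving out a library. Against double-positive cells the 231 became 403 with no filter, 11 thinned, 3 with strict T cell identity, 66 with at least 10 Il22 UMIs, 13 without cycling cells and 87 to 149 leaving out a library. Between Ifng-holding and Ifng-0 cells the 12 became 111 with no filter, 7 without doublets, 0 thinned, 0 with strict T cell identity, 4 without cycling cells and 12 to 21 leaving out a library. Between 10 or more and 1 Il22 UMI the 0 became 27 with no filter, 5 without doublets, 2 thinned and 0 to 6 leaving out a library. Without the library block the counts were 5 against Il17a cells, 336 against cells with neither and 112 against double-positive cells, and 8 between Ifng-holding and Ifng-0 cells. The share of Il22 cells was 0.450% with at least 10 Il22 UMIs and 1.31 to 2.17% leaving out a library. The thresholds of 10 Il22 UMIs, the removal of cycling cells and the comparison of Il22 strata were chosen after seeing the data. Thinning and strict identity also leave fewer Il22 cells and UMIs, and fewer genes were tested. The 4-class fits tested 7474 genes, 3547 thinned, 3881 with strict identity, 5050 without cycling cells and 5011 with at least 10 Il22 UMIs. The fits of the Ifng split tested 3523 genes, 673 thinned, 1492 with strict identity and 1715 without cycling cells. The part of this in the counts was not tested. For the thinned fits the classes and the Ifng split were formed again from the thinned counts, so some cells changed class. Cells with neither went from 19749 to 19931 and Il22 cells from 419 to 291. The sets by Il22 UMIs kept their unthinned split. Libraries 3 and 4 held 56 and 46 Il22 cells, so genes at a few CPM there rest on single UMIs.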

Other observations

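The most common β chain variable segment of the Il22 cells was not the same in the 4 libraries; these segments were chosen after their values were seen, and no test was made. A segment's share is over cells with a Trbv UMI, by the segment with most UMIs in the cell, and 21 of the 35 segments led in at least 1 Il22 cell. In library 1 Trbv5 led in 25 of 184 Il22 cells (13.6%), in 17.6% of double-positive cells, in 7.20% of Il17a cells and in 4.86% of cells with neither. In library 2 Trbv16 led in 20 of 120 Il22 cells (16.7%), in 24.1% of double-positive cells, in 19.2% of Il17a cells and in 16.99% of cells with neither. In library 3 Trbv20 led in 12 of 54 Il22 cells (22.2%), in 45.5% of double-positive cells, in 15.4% of Il17a cells and in 4.30% of cells with neither. In library 4 Trbv4 led in 7 of 44 Il22 cells (15.9%), in 16.7% of double-positive cells, in 2.54% of Il17a cells and in 3.68% of cells with neither. Trbv20 led in 1.63%, 1.67% and 6.82% of Il22 cells in libraries 1, 2 and 4, and Trbv4 in 1.09%, 0.833% and 1.85% in libraries 1 to 3. In each library the share among double-positive cells, of which 22 to 108 held a Trbv UMI, was above that among Il22 cells. Margins were small in library 1, where Trbv13-2 and Trbv19 each led in 23 Il22 cells against 25 for Trbv5. In library 4 Trbv13-2 led in 6 against 7 for Trbv4. Trbv13-2 led in 12.5%, 14.2%, 1.85% and 13.6% of Il22 cells in libraries 1 to 4.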
